A study of Bos taurus with 4 samples.

Results

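Solute carriers, the genes whose symbol is SLC followed by a family number, were followed in cattle muscle as 119 of the 176 such genes that the microarray carries, out of 6376 genes measured in all. A carrier was kept where its signal was well above background in the same dye on at least 3 of 4 arrays, and was represented by its brightest probe. The tissue was m. semitendinosus, taken from the hind leg at slaughter and cleared of fat and connective tissue, in Limousin bulls (LIM, a beef breed) and Holstein-Friesian bulls (HF, the dairy breed that served as reference), all at 15 months of age. Each of the 4 arrays held RNA of 1 LIM bull in the red dye Cy5 and RNA of 1 HF bull in the green dye Cy3, so 4 bulls of each breed were measured, with no treatment and no pooling of animals.

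Solute carriers are membrane proteins that move sugars, amino acids, nucleosides, ions, metals and organic acids across the plasma membrane and the membranes of organelles. In skeletal muscle the family includes the insulin-responsive glucose carrier, the lactate carriers, the creatine carrier and the adenine nucleotide carriers through which mitochondria export ATP. Members with a shared family number usually carry related substrates, and the SLC25 family sits almost entirely in the inner mitochondrial membrane.

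All values are log2 ratios, LIM channel over HF channel as the dyes are labelled, with the moderated standard error over 4 arrays, and the ratio was tested against 0 with limma. For SLC25A4, SLC25A39 and SLC25A26, the direction that follows from the dye labels is the opposite of the one the study gives. If the labels of the 2 channels were exchanged, every sign below would turn, and the counts of higher and lower carriers would change places. Because Cy5 always marked LIM, a dye effect and a breed effect cannot be told apart for any value here. Per array, 32513 to 33527 of 42990 spots exceeded background clearly in the LIM channel, and 27102 to 28769 did so in the HF channel. All 9 muscle fibre markers on the array were above background in both channels of every array. In whole muscle RNA, fewer cells of a type and less RNA per cell cannot be told apart.

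Of the 119 carriers, 6 passed the test (adjusted p under 0.05). SLC2A1, the basal glucose carrier, and SLC1A5, an exchanger of glutamine and other neutral amino acids, were lower in the channel labelled LIM. Higher there were SLC25A4, the ADP/ATP carrier of heart and muscle mitochondria, SLC25A39, which serves glutathione import into mitochondria, SLC29A2, an equilibrative nucleoside carrier, and SLC35F5, an SLC35 member whose cargo is not settled. These 6 were 5.04% of the 119 carriers, against 5.47% of all 15855 probes tested. Higher carriers made up 3.36% of the family (4 genes) against 2.96% of all probes, and lower carriers 1.68% (2 genes) against 2.51%. Counted by the brightest probe of each of the 6376 genes measured, 5.93% passed, 2.78% higher and 3.15% lower. The share of carriers past the test was thus near that of the array as a whole. At an unadjusted p (limma) under 0.05 there were 17 higher and 12 lower carriers of the 119. At that p, 2393 of all 15855 probes were higher and 1933 lower, and of the 6376 genes 911 and 932.

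The calls rested on all 4 arrays together. With array 1, 2, 3 or 4 left out, limma passed 0 carriers each time. At an unadjusted p (limma) under 0.05, 12, 13, 17 and 11 carriers were then higher and 13, 9, 10 and 8 lower. In the same fits 3911, 3300, 3566 and 3184 of all 15855 probes had such a p, in either direction. Given a robust prior that follows intensity, limma also passed 0 carriers. At an unadjusted p under 0.05 this fit had 19 higher and 10 lower carriers, and 4098 of all 15855 probes. The methods' t-test after Benjamini-Hochberg adjustment passed 0 carriers. Each of the 6 kept its sign in all 23 alternative settings of the processing. Several of these, such as Aquantile, the t-tests and the filters on dim probes, left the 6 ratios unchanged, so no sign could turn there. The series table repeated the processed signals. With median centring in place of loess, 32 carriers were higher and 2 lower, and the share of higher among all called probes went from 54.1% to 92.8%.

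Across the family the ratios were small. The median over 119 carriers was 0.017, beside 0.018 over all probes, and the middle of the distribution lay between -0.10 and 0.14. By array the carrier median was 0.054, -0.0072, 0.033 and 0.087 on arrays 1 to 4. A mean difference of at least 2-fold was reached by 2 carriers, SLC25A25 and SLC27A1, both lower and neither past the test, and by 0 carriers in the other direction. On all 4 arrays 25 carriers (21.0%) were above 0, against 21.2% of all probes, and 15 (12.6%) were below 0, against 15.7%. With 1 probe per gene, as for the carriers, 18.7% of the 6376 genes were above 0 and 17.5% below. The median over these genes was 0.0029. In 13 carriers every LIM signal exceeded every HF signal, as did 9.48% of all probes, and in 5 carriers the reverse held, as for 7.35% of all probes. The median SD between arrays was 0.19 for the carriers and for all probes.

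Glucose carriers, the SLC2 family, were measured for 6 of 8 genes on the array. SLC2A1, also known as GLUT1, had ratios of -1.08, -0.41, -1.22 and -0.99 on arrays 1 to 4. The HF signal was the higher one on every array, and array 2 showed the smallest gap. The mean was -0.93 ± 0.15 (95% interval -1.29 to -0.56, adjusted p = 0.0378), so the HF signal was 1.90-fold the LIM signal. Its normalised log2 signal ran from 6.67 to 7.12 in the LIM channel and from 7.09 to 8.20 in the HF channel, so the ranges met at the HF bull of array 2. The probe was dim, and with the processed signals of the scanner software the ratio was -1.76.

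SLC2A4 (GLUT4), the carrier that insulin and contraction bring to the muscle cell surface, had ratios of 0.36, -0.38, -0.40 and 0.21. Arrays 1 and 4 lay above 0 and arrays 2 and 3 below. The mean of -0.05 ± 0.16 (interval -0.45 to 0.35) did not pass the test, and median centring turned it to 0.61 with a limma adjusted p of 0.0357. No direction can therefore be given for SLC2A4.

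SLC2A3 (GLUT3), a high-affinity glucose carrier, gave 0.51, 0.68, -0.997 and -1.27 and thus divided the arrays into opposite directions. SLC2A8, an intracellular hexose carrier, ranged from -0.94 to 0.60. SLC2A12, a further muscle hexose carrier, read 0.14 on array 1 and between -0.27 and -0.24 on the others. SLC2A13, a proton-linked myo-inositol carrier, stayed between -0.02 and 0.10 and was not well above background in the HF channel on any array. The median of the 6 was -0.15, with array medians of 0.25, -0.32, -0.39 and -0.10 on arrays 1 to 4. SLC2A1 was the single glucose carrier below 0 on all 4 arrays.

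Of 18 genes listed for insulin-driven glucose uptake, 7 were on the array and 1 passed the test (14.3%, against 5.47% of all probes). In a list of 7 genes a single call sets this share. TBC1D1, a Rab GTPase-activating protein that restrains GLUT4 traffic, rose to 0.71 ± 0.12 (limma, adjusted p = 0.0440), with 0.31, 0.99, 0.80 and 0.73 on arrays 1 to 4. STX4, the surface SNARE protein for GLUT4 vesicles, had a mean of 0.34 ± 0.07 (adjusted p = 0.0642). HK1, a hexokinase, had a mean of -0.66 ± 0.23 (adjusted p = 0.150).

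**Figure D1:**
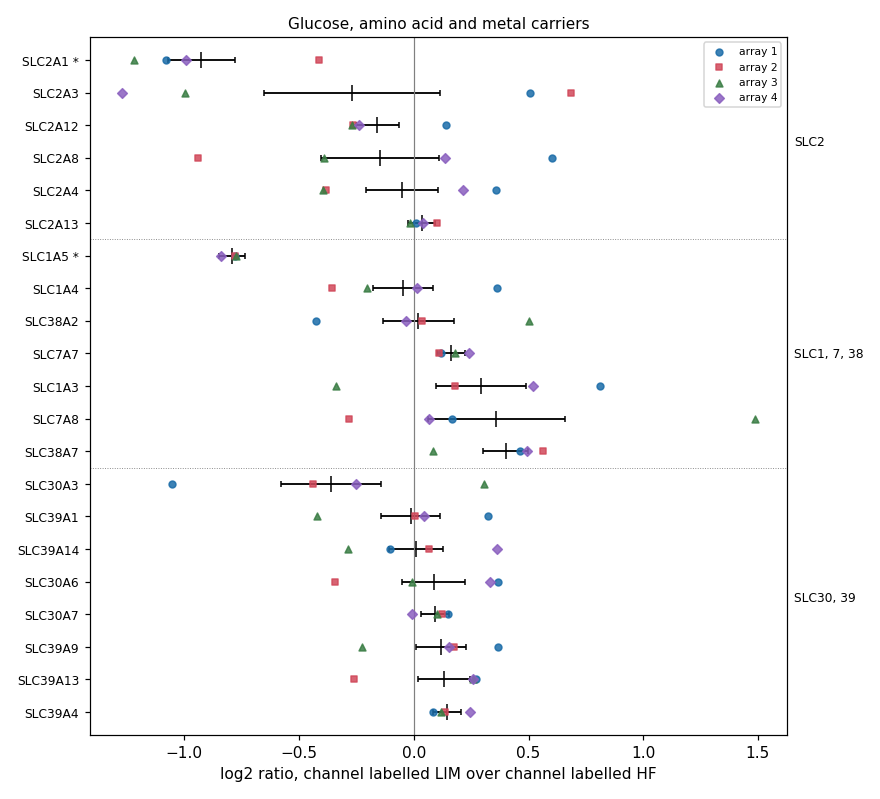
Log2 ratios (x axis, LIM channel over HF channel) of the 6 glucose, 7 amino acid and 8 metal carriers measured; coloured symbols are the 4 arrays, the vertical tick is the mean, the bar its moderated standard error, and an asterisk marks a carrier past the test. SLC1A5 has all 4 arrays between -0.84 and -0.78, while SLC2A3 is spread from -1.27 to 0.68.

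Plotted by array, the glucose, amino acid and metal carriers differ most in their spread. SLC1A5 (ASCT2) had ratios of -0.78, -0.78, -0.78 and -0.84 on arrays 1 to 4. Its SD of 0.032 between arrays was far below the median SD of 0.19. The mean was -0.79 ± 0.06 (interval -0.94 to -0.65, limma, adjusted p = 0.0188), so the HF signal was 1.73-fold the LIM signal. The log2 signals ran from 7.99 to 8.74 in the LIM channel and from 8.76 to 9.52 in the HF channel, without overlap. Median centring left -0.34 (adjusted p = 0.108), a loss of the call with the same sign.

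The other 6 amino acid carriers did not pass the test. SLC38A7, a lysosomal glutamine exporter, had ratios of 0.46, 0.57, 0.08 and 0.49, all above 0, with a mean of 0.40 ± 0.10 (adjusted p = 0.0785). SLC38A2 (SNAT2), the muscle carrier for small neutral amino acids, gave -0.43, 0.04, 0.50 and -0.03, a mean of 0.02 ± 0.15. SLC7A8 (LAT2), an exchanger of large neutral amino acids, read 1.49 on array 3 and -0.28 to 0.17 on the others, so 1 pair of bulls set its mean of 0.36 ± 0.30.

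SLC1A3 and SLC1A4, carriers of glutamate and of neutral amino acids, ranged from -0.34 to 0.81 and from -0.36 to 0.36. SLC7A7, a light chain of the cationic amino acid exchanger, had a mean of 0.16 at its brightest probe and -0.30 at another, so its probes disagreed in sign. SLC7A5 (LAT1) was well above background on 1 array and SLC7A1, a cationic amino acid carrier, was likewise not kept. The median over the 7 measured carriers was 0.16 and its array medians were 0.17, 0.04, 0.08 and 0.07, but with no filter on dim probes the median was -0.03.

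Amino acid sensing and the ATF4 stress response were covered by 13 genes, of which 2 passed the test (15.4%, against 5.47% of all probes). RRAGA, a GTPase that signals amino acid supply to mTORC1, rose to 0.68 ± 0.08 (limma, adjusted p = 0.0239) and lay between 0.55 and 0.80 on the 4 arrays. DDIT3 (CHOP), a transcription factor induced through ATF4, fell to -0.68 ± 0.12 (adjusted p = 0.0442) with -0.98, -0.66, -0.31 and -0.76. The median of the 13 genes was 0.06.

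Mitochondrial carriers formed the largest substrate group, with 23 of 27 SLC25 genes measured. By the test, 2 of them (8.70%, against 2.96% of all probes) were higher and 0 lower (against 2.51%). At an unadjusted p (limma) under 0.05, 5 of the 23 were higher and 3 lower, beside 2393 and 1933 of all 15855 probes. The median of the 23 carriers was 0.11, and the array medians of 0.11, -0.05, -0.03 and 0.14 lay on both sides of 0.

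SLC25A39 had ratios of 0.46, 0.84, 0.93 and 1.06 on arrays 1 to 4. Every array was above 0, and the lowest LIM signal (12.11) exceeded the highest HF signal (11.66). The mean of 0.82 ± 0.11 (interval 0.54 to 1.11, adjusted p = 0.0307) made the LIM signal 1.77-fold the HF signal.

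The adenine nucleotide carriers exchange mitochondrial ATP for ADP, and all 3 measured members are encoded by separate genes. SLC25A4 (ANT1), the form typical of heart and skeletal muscle, gave 0.81, 0.50, 0.28 and 0.64. The LIM signals (14.58 to 14.77) lay above all HF signals (13.97 to 14.30), and the mean was 0.55 ± 0.10 (interval 0.30 to 0.81, limma, adjusted p = 0.0470). Among the 6 carriers past the test it held the call in the fewest alternatives, 11 of 23.

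SLC25A5 (ANT2), the form of proliferating cells, had ratios of -0.62, -0.10, -0.78 and -0.63. All 4 were below 0, with a mean of -0.53 ± 0.12 that missed the test (adjusted p = 0.0727). SLC25A6 (ANT3) gave -0.01, -0.16, -0.62 and -0.56, with a mean of -0.34 ± 0.13 (adjusted p = 0.167) that median centring turned to 0.32. The 3 isoforms thus had means on both sides of 0, and the difference between isoforms was not tested.

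The SLC25 carriers of acylcarnitine, S-adenosylmethionine and peroxisomal cofactors did not pass the test. SLC25A20, which exchanges acylcarnitines for carnitine and so admits long-chain fatty acids, had ratios of 0.58, 0.80, 0.13 and 0.59 and a mean of 0.53 ± 0.12 (adjusted p = 0.0689). SLC25A26, the S-adenosylmethionine carrier, lay between 0.17 and 0.43 with a mean of 0.34 ± 0.07 (adjusted p = 0.0578). SLC25A17, a carrier of the peroxisomal membrane that is counted in this group by its family number, had a mean of 0.28 ± 0.09 (adjusted p = 0.120).

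The carriers of the malate-aspartate shuttle, which passes reducing equivalents into mitochondria, were near 0. SLC25A11, the oxoglutarate carrier, had a mean of -0.06 ± 0.08 (interval -0.26 to 0.14). SLC25A12, the aspartate/glutamate carrier, had a mean of -0.03 ± 0.10 (interval -0.29 to 0.23). Median centring moved them to 0.62 and 0.58, so no direction can be given for either.

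SLC25A25, the calcium-regulated ATP-Mg/phosphate carrier, had the lowest mean ratio of the 119 carriers measured. Its ratios were -0.90, -2.25, -1.94 and -0.54 on arrays 1 to 4, and all LIM signals (9.42 to 10.96) except that of array 4 lay below all HF signals (10.82 to 12.41). The mean of -1.41 ± 0.31 (adjusted p = 0.0660) did not pass the test, with an SD of 0.81 between arrays. With a normexp offset of 10 it was -1.46 (limma, adjusted p = 0.0362), and a dimmer second probe of the gene read -0.22 ± 0.08.

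SLC25A34, a carrier without an assigned substrate, divided the arrays, with 0.78 and 0.91 on arrays 1 and 2 and -0.48 and -0.06 on arrays 3 and 4. At the other extreme SLC25A42, a coenzyme A carrier, lay between 0.11 and 0.16 and SLC25A21, an oxodicarboxylate carrier, between -0.10 and -0.05. SLC25A22, a glutamate carrier, and SLC25A31, a further adenine nucleotide carrier, were above background on 2 arrays and so fell just outside the measured set.

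**Figure D2:**
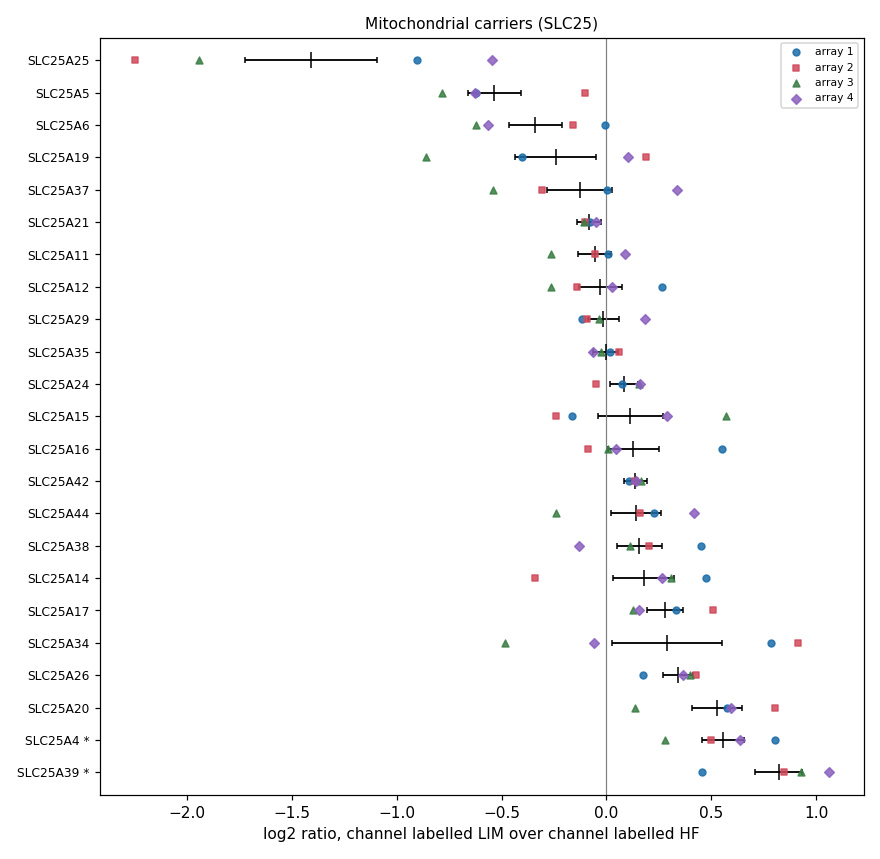
Log2 ratios (x axis, LIM channel over HF channel) of the 23 mitochondrial carriers, ordered by mean; coloured symbols are the 4 arrays, the vertical tick is the mean, the bar its moderated standard error, and an asterisk marks a carrier past the test. SLC25A4 and SLC25A39 lie above 0 on every array at the bottom, and SLC25A25 lies below 0 on every array at the top, with a range from -2.25 to -0.54.

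In the plot of the mitochondrial carriers most members straddle 0. Of the 23, 6 (26.1%) were above 0 on all 4 arrays, against 21.2% of all probes, and 4 (17.4%) were below, against 15.7%. With 1 probe per gene the shares over all genes were 18.7% and 17.5%. Among 12 genes for carrier import and neighbouring membrane proteins, 1 passed the test (8.33%, against 5.47% of all probes). This was UCP3, the muscle uncoupling protein of the same superfamily, at 1.67 ± 0.10 (limma, adjusted p = 0.0183) and between 1.40 and 1.85 by array. VDAC3, an outer membrane channel, had a mean of -0.69 ± 0.15 (adjusted p = 0.0608). TOMM20, an import receptor, had a mean of 0.27 ± 0.10 (adjusted p = 0.154).

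Metal carriers of the SLC30 and SLC39 families, which move zinc out of and into the cytosol, were measured for 8 of 10 genes, and 0 passed limma's test, also at an unadjusted p under 0.05. Their median was 0.09, with array medians of 0.21, 0.03, 0.05 and 0.20. SLC30A7, a zinc carrier of the secretory pathway, lay between -0.01 and 0.15. SLC39A1 and SLC39A14, plasma membrane importers of zinc, had means of -0.01 ± 0.13 and 0.01 ± 0.12.

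SLC30A3, a zinc carrier of vesicles, had the widest spread of the group, with -1.06, -0.44, 0.31 and -0.25. SLC39A4, a zinc importer, was above 0 on all 4 arrays (0.08 to 0.25), with an HF signal not well above background on any. Among the 7 metal-handling genes on the array, MT2A, a metallothionein that binds zinc and copper, rose to 3.07 ± 0.19 (limma, adjusted p = 0.0183). MT2A was the 1 gene of this list past the test (14.3%, against 5.47% of all probes). FTL, the ferritin light chain, had a mean of 0.56 ± 0.26 and HAMP, the iron hormone hepcidin, 0.19 ± 0.06, neither past the test.

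The remaining 75 carriers came from families outside these 4 groups. Of them 2, or 2.67%, passed the test, against 5.47% of all probes and 5.93% of all genes measured. The median of the 75 carriers was 0.0071. SLC35F5 had ratios of 0.81, 0.72, 0.82 and 0.72 on arrays 1 to 4, an SD of 0.05. Every LIM signal (9.93 to 10.35) was above every HF signal (9.12 to 9.53), and the mean of 0.77 ± 0.06 (interval 0.62 to 0.92, limma, adjusted p = 0.0188) made the LIM signal 1.70-fold the HF signal. It was 1 of 12 SLC35 genes measured, a family of mostly nucleotide sugar carriers whose median was 0.03.

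SLC29A2 (ENT2) had ratios of 0.78, 1.05, 0.77 and 0.59. The LIM signals (11.31 to 11.93) were all above the HF signals (10.71 to 11.15). With a mean of 0.80 ± 0.09 (interval 0.57 to 1.02, adjusted p = 0.0239) the LIM signal was 1.74-fold the HF signal. SLC29A1 (ENT1), the other equilibrative nucleoside carrier measured, lay between -0.14 and 0.12 with a mean of -0.07 ± 0.07. The difference between these carriers was not tested.

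**Figure D3:**
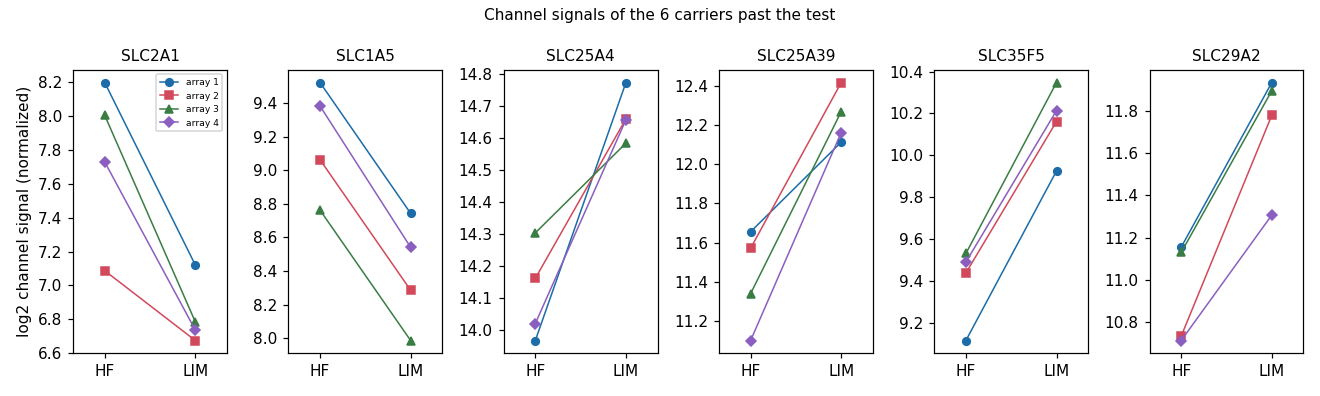
Normalised log2 signals (y axis, arbitrary units, a separate scale per panel) of the 6 carriers past the test in the channels labelled HF and LIM; each line joins the signals of the 2 bulls on 1 array. The channels do not overlap in the panels of SLC1A5, SLC25A4, SLC25A39, SLC35F5 and SLC29A2, and in that of SLC2A1 the HF bull of array 2 (7.09) lies within the LIM range.

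Drawn by channel, the lines of the 6 carriers past the test all run the same way within a panel. The level of the lines cannot be compared between panels, since probes differ in brightness. For SLC1A5 the lines are nearly parallel, so both channels of an array were high or low together. A level set by the array and one set by its bulls cannot be told apart.

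The SLC27 proteins take up or activate fatty acids, and 0 of the 3 measured passed limma's test, with SLC27A1 alone at an unadjusted p under 0.05. SLC27A1 (FATP1), a fatty acid uptake protein of muscle and fat, had ratios of -1.76, -0.75, -0.03 and -2.12. Array 3 showed almost no difference, and the mean was -1.16 ± 0.36 (adjusted p = 0.122). SLC27A4 and SLC27A5 had means of 0.080 ± 0.09 and 0.0066 ± 0.06. SLC22A5 (OCTN2), which brings carnitine into muscle, gave -0.51, -0.15, -0.42 and 0.06, with a mean of -0.25 ± 0.11 (adjusted p = 0.225) that median centring turned to 0.16. SLC22A16, another carnitine carrier, read 0.21 on array 1 and -1.20 to -0.85 on the others.

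Lactate leaves and enters muscle through monocarboxylate carriers. SLC16A1 (MCT1) had a mean of -0.17 ± 0.08 (interval -0.37 to 0.03) and SLC16A3 (MCT4), the form of glycolytic fibres, 0.15 ± 0.09 (interval -0.07 to 0.37). Neither passed the test, and their difference was not tested. BSG (basigin), the chaperone of both, had 0.30, 1.24, 0.35 and 0.71, all above 0, with a mean of 0.65 ± 0.17 (limma, adjusted p = 0.0925).

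SLC16A6, a monocarboxylate carrier linked to ketone bodies, varied most of all carriers between arrays (SD 1.39), with -2.15 and -2.19 on arrays 1 and 2 and 0.31 and 0.15 on arrays 3 and 4. The creatine carrier SLC6A8 gave 0.27, 0.24, -0.20 and 0.39, a mean of 0.18 ± 0.11. The taurine carrier SLC6A6 was above background on 2 arrays and was not measured.

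Ion carriers with 1 sign on all arrays lay on both sides of 0. SLC12A4 (KCC1), a potassium-chloride cotransporter, gave -0.70, -0.48, -0.80 and -0.11, a mean of -0.52 ± 0.13 (adjusted p = 0.0791). SLC4A7, a sodium bicarbonate cotransporter, gave -0.69, -0.61, -0.34 and -0.23, with a mean of -0.47 ± 0.10 (adjusted p = 0.0626) and an HF range (7.25 to 7.76) above the LIM range (6.92 to 7.07). SLC20A2, a phosphate carrier, lay between 0.08 and 0.35 and did not pass the test. SLC8A3, the sodium-calcium exchanger of skeletal muscle, lay between -0.11 and 0.03. SLC8A1, the sodium-calcium exchanger of the heart and many other tissues, was not well above background on enough arrays.

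SLC40A1 (ferroportin), the iron exporter, had 0.62, 0.70, -0.31 and 0.41 at its brightest probe, a mean of 0.36 ± 0.18, and -0.05 at its other probe. SLC48A1, a haem carrier of endosomes, lay between 0.10 and 0.64, and SLC26A11, an anion carrier of lysosomes, between 0.06 and 0.69. The means of the latter were 0.37 ± 0.11 and 0.39 ± 0.11 (adjusted p = 0.117 and 0.105), and none of the 3 passed the test.

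**Figure D4:**
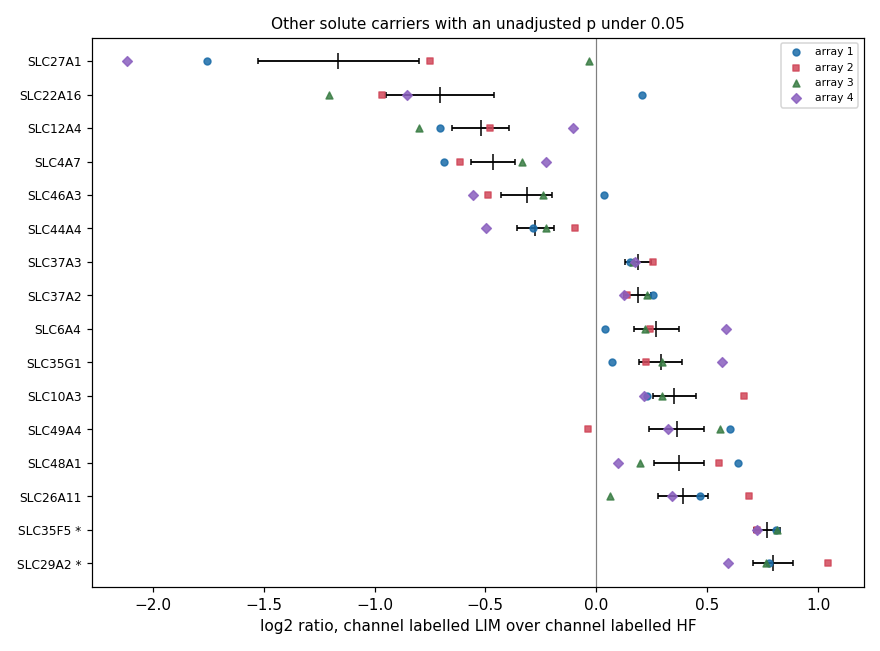
Log2 ratios (x axis, LIM channel over HF channel) of 16 of the 17 carriers outside the 4 substrate groups with an unadjusted p (limma) under 0.05; coloured symbols are the 4 arrays, the vertical tick is the mean, the bar its moderated standard error, and an asterisk marks a carrier past the test. SLC35F5 and SLC29A2 have all arrays between 0.59 and 1.05, while SLC27A1 runs from -2.12 to -0.03.

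The plot of the other families shows 16 of 17 carriers, 10 above 0 and 6 below, at an unadjusted p under 0.05. Tight and wide spreads occur on both sides. The carriers were chosen for it by that p, so the plot is a description.

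For 13 of the 119 carriers the LIM signal cleared background on all 4 arrays and the HF signal on none. The same held for 1140 of all 15855 probes tested, and for 292 of the 6376 genes measured. These 13 carriers entered only through the LIM channel, which was the brighter one for the array as a whole. Their ratios above 0 are therefore a description. For 6 of them the bound on the mean fold, LIM over HF, was above 1. It was 1.12 for SLC37A2, a sugar phosphate exchanger, and 1.08 each for SLC66A3, SLC39A4 and SLC37A3. For SLC26A7, an anion exchanger, it was 1.05, and for SLC43A3, a nucleobase carrier, 1.02. These bounds carry no sampling error. The 95% interval of the log2 ratio included 0 for SLC66A3, SLC39A4, SLC26A7 and SLC43A3, and the second kept probe of SLC37A3 read -0.04. When arrays were median-centred instead, all 6 ratios turned below 0 (-0.24 to -0.10), so their direction depends on the scaling. The bound of the other 7 (SLC2A13, SLC25A35, SLC4A4, SLC14A1, SLC17A9, SLC35F6 and SLC35G2) was not above 1, and no fold is given. None of the 13 passed limma's test, in which SLC37A2 and SLC37A3 had an unadjusted p under 0.05.

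Of the 57 carriers that were not kept, SLC25A22, SLC25A31 and SLC6A6 came nearest, with 2 arrays above background in the LIM channel. Just inside the rule, with 3 arrays, were SLC16A7, SLC6A17, SLC35G6 and SLC35D1, whose means were -0.16, -0.05, -0.02 and 0.05. SLC4A1 (band 3), the anion exchanger of red blood cells, and SLC2A2 (GLUT2), the glucose carrier of liver and pancreas, were among those not kept. Of the carriers with several kept probes, SLC15A4, SLC37A3, SLC40A1 and SLC7A7 had probes that differed in sign, none of them past the test.

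Markers of fibre types and of other cells in muscle were read beside these values. The 5 slow fibre markers had a median of -0.88, with -2.16, -0.48, -0.93 and -0.01 by array, and MYL3 passed the test. Their summed log2 signal was 17.49 to 18.17 in the LIM channel and 18.32 to 19.53 in the HF channel. The 5 fast fibre markers had a median of 0.48, with 3 means above 0 and 2 below. Their sums were 18.92 to 19.09 in the LIM and 18.70 to 18.98 in the HF channel. PVALB and TNNC2 were higher by the test, while MYH2 (-0.51 ± 0.31) and MYH1 (-0.04 ± 0.11) had means below 0 and did not pass. Of the 9 muscle fibre markers, 1 passed the test, MB at 1.02 ± 0.15 (limma, adjusted p = 0.0325). Shares past the test were 20% of the slow, 40% of the fast and 11.1% of the muscle fibre markers, against 5.47% of all probes. SLC2A1 lay below 0 and SLC25A4 above 0 on all 4 arrays, and their relation to the fibre markers was not tested.

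Among the other lists, 3 of 4 macrophage markers were measured, with a median of -0.49 and sums of 10.43 to 11.53 in the LIM and 11.27 to 12.85 in the HF channel. The 6 endothelial markers had a median of -0.16 (sums 9.80 to 10.66 and 10.36 to 10.46), and 3 of 5 red cell markers had a median of -0.09 (sums 12.50 to 13.44 and 12.13 to 13.84). The 6 fibroblast markers had a median of 0.39 (sums 14.04 to 14.91 and 13.54 to 14.50), 3 of 4 adipocyte markers 0.41 (sums 8.50 to 10.53 and 8.49 to 9.18), and both nerve markers -0.31 (sums 7.57 to 7.99 and 7.66 to 8.51). In these 6 lists 0 markers passed limma's test, with 4 higher and 2 lower at an unadjusted p under 0.05. Of all 15855 probes, 2393 were higher and 1933 lower at that p. The part of fibre types and of these cells in the carrier ratios was not tested.

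**Figure D5:**
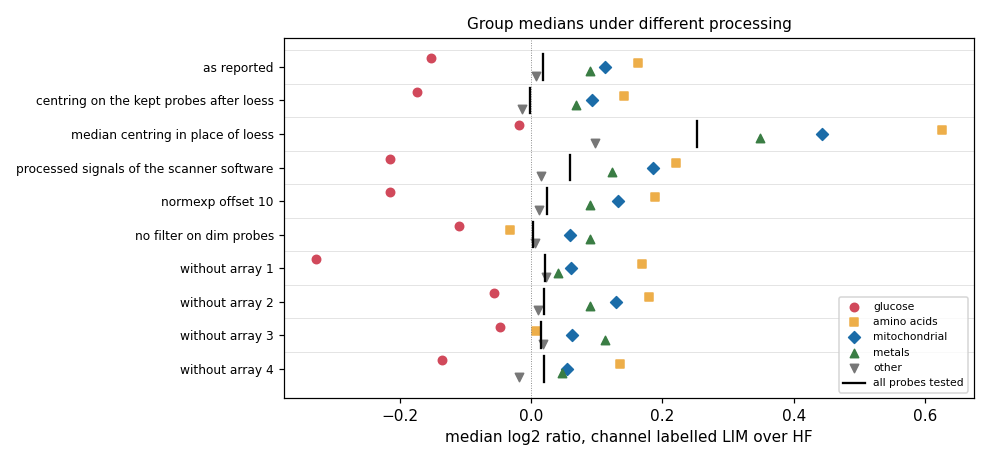
Median log2 ratio (x axis, LIM channel over HF channel) of each substrate group under 10 of the settings of the processing (y axis); symbols are the groups and the black bar is the median of all probes tested. The glucose median lies between -0.33 and -0.02 throughout, and median centring moves the bar of all probes to 0.25.

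Across the settings plotted, and in all other alternatives, the glucose median stayed below 0 and the mitochondrial and metal medians above 0. Aquantile, the robust prior, the t-tests and the unpaired channels left these medians unchanged, so no sign could turn there. By array, the glucose median was 0.25 on array 1, and the mitochondrial median was -0.05 and -0.03 on arrays 2 and 3. With median centring, where all probes shifted to 0.25, the medians relative to that shift were -0.27 for glucose, 0.37 for amino acid, 0.19 for mitochondrial and 0.10 for metal carriers, and -0.15 for the others. The amino acid median was below 0 with no filter, and the median of the other families, which lay next to 0, changed sign in 3 alternatives. These medians rest on 6, 7, 23, 8 and 75 genes and have no test.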

How the data were processed

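The members and the gene lists were chosen with earlier results of these data known. RNA of m. semitendinosus was hybridised to 4 two-colour Agilent bovine arrays, 1 LIM (Cy5) and 1 HF (Cy3) bull on each, per the labels. Per the file headers the authors quantified the spots with Feature Extraction 10.7.3.1. They deposited, as intensity, raw medians per spot and dye with medians of the local background, and processed signals from which the software had removed background and dye bias. The log10 ratios they deposited set processed red over processed green; the same numbers filled the series table (largest difference 0). The files hold no mean foreground, so medians replaced the planned means. The p-value columns deposited by the scanner software were not used.

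Background was corrected with normexp (offset 50), ratios were normalized within arrays by loess with control spots at weight 0, 5 to 10 non-uniform spots per array were dropped, and spots of a probe were averaged (21475 probes). The 15855 probes that cleared background in the same dye on at least 3 arrays were tested with limma 3.58.1 in R 4.3.3 (lmFit and eBayes, mean log2 ratio against 0, two-sided, Benjamini-Hochberg over all probes kept, threshold 0.05). The offset lowers the ratios of dim probes. The fit was tested on simulated data. Channel signals and bounds were taken after loess and Aquantile. A bound is the LIM mean over the HF mean with each HF signal raised, where it was lower, to the dimmest signal that still cleared background on that array. Aquantile leaves the log ratios as they were. The number of arrays limits the precision. Bulls differed between arrays, and p-values measure the spread between 4 pairs. All arrays lay on 1 slide, so no slide or scan block could be fitted.

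Probes were named by accession in the RefSeq annotation of ARS-UCD2.0, which gave a symbol for 8297 probes. No coordinates are given, since the design of the array names an older build. Carriers named are those past the test, up to 3 with the highest and 3 with the lowest ratios of 1 sign on all arrays in each group, a list of known muscle carriers, members with a bound, and partner genes past the test or with the smallest unadjusted p (up to 3 per list). SLC2A8, SLC1A3, SLC1A4, SLC25A17, SLC25A21, SLC25A26, SLC25A34, SLC25A42, SLC30A3, SLC16A6, SLC22A16, SLC4A7, SLC20A2, SLC29A1, SLC48A1 and the carriers in the plot of the other families were added after their values were seen. A few carriers are counted in the totals and not reported by name here. There were 5 partner and 9 marker lists.

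Alternatives were the scanner's processed signals, no background correction, an offset of 10, median centring, Aquantile and scale normalization, 2 filters on dim probes, 2 ways with outlier spots, array weights, a robust prior that follows intensity, channels as unpaired groups, the methods' t-test with the thresholds stated there (a fold of at least 1.3) and after Benjamini-Hochberg, the series table, probe means per gene, and fits without each array. Median centring with an offset of 10 and centring on the kept probes were chosen after seeing the data.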

Additional observations from a re-analysis of the deposited data

Results flagged for a closer look

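Of 63 values checked for an array standing apart from the other 3, 2 were marked, where chance alone gives about 3.15. For SLC2A12 array 1 (0.14) stood apart from the others (-0.27 to -0.24), with a gap of 0.923 of the whole range. For SLC1A5 array 4 (-0.84) stood apart from the others (all -0.78), with a gap of 0.960 of a range that was itself narrow.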

How the results depend on the processing

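The 6 carriers past the test kept their sign in all 23 alternatives and their call in 16 (SLC2A1, SLC25A39, SLC35F5 and SLC29A2), 14 (SLC1A5) and 11 (SLC25A4). The alternatives were not independent of each other. Several left the ratios unchanged and the series table repeated the processed signals, so these counts are a description. Over the 23 alternatives their adjusted p ran from 0.00898 to 0.169. Leaving out 1 array gave 0 to 51 probes past the test in all, 0 higher and 0 lower carriers (as printed in the report), and amino acid medians from 0.0074 to 0.180.

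Probes past the test went from 868 to 1336 with processed signals, 1347 with the series value table, 3800 with median centring, 1479 with the methods' t-test, 1 with that test after Benjamini-Hochberg, 0 with the intensity trend and robust prior (4098 at an unadjusted p under 0.05) and 253 with offset 10 and median centring. Higher carriers went from 4 to 7 with processed signals, 7 with the series table, 32 with median centring, and 0 with the trend, the adjusted t-test and offset 10 with median centring. Lower carriers went from 2 to 4 with processed signals, 5 with the series table, 6 with offset 10, 7 with the methods' t-test, 1 with no filter, 1 with offset 10 and median centring, and 0 with the trend and the adjusted t-test. With no replicate block, that is with the pairing of bulls on an array dropped, 1091 probes, 7 higher and 1 lower carriers passed. The amino acid median of 0.16 moved to 0.22 with processed signals and with the series table, 0.63 with median centring, -0.032 with no filter, 0.019 with the mean of all probes and 0.36 with offset 10 and median centring. Median centring moved the mitochondrial median to 0.44, the metal median to 0.35 and that of the other families to 0.10, and with offset 10 the last became 0.077 and the metal median 0.22.

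The ratios that changed sign belonged to carriers that had not passed the test. With median centring the ratio became 0.070 for SLC2A3, 0.61 for SLC2A4, -0.31 for SLC2A13, 0.32 for SLC25A6, 0.62 for SLC25A11, 0.58 for SLC25A12, 0.48 for SLC39A1, -0.14 for SLC39A4, 0.16 for SLC22A5, 0.031 for SLC8A3, -0.34 for SLC35G2, -0.31 for SLC14A1, -0.24 for SLC43A3, -0.28 for SLC35F6, -0.14 for SLC66A3, -0.18 for SLC26A7, -0.14 for SLC37A3 and -0.10 for SLC37A2. With offset 10 and median centring, chosen after seeing the data, the ratio became 0.18 for SLC2A4, -0.20 for SLC2A13, 0.19 for SLC25A11, 0.19 for SLC25A12, 0.17 for SLC39A1, 0.011 for SLC8A3, -0.23 for SLC35G2, -0.18 for SLC14A1, -0.066 for SLC43A3 and -0.097 for SLC35F6. With no background correction the ratio became 0.014 for SLC25A35, 0.019 for SLC4A4 and -0.035 for SLC35G2. With processed signals, and with the series value table, the ratio became 0.14 for SLC25A35 and 0.26 for SLC4A4. With scale normalization the ratio became -0.015 for SLC38A2 and 0.014 for SLC39A1. With centring on the kept probes, also added later, the ratio became -0.0011 for SLC38A2 and -0.012 for SLC39A14. With array weights the ratio became 0.0042 for SLC39A1. With the mean of all probes the ratio became -0.069 for SLC7A7. Leaving out 1 array gave ratios on both sides of 0, from -0.19 to 0.063 for SLC2A4, from -0.13 to 0.051 for SLC25A12, from -0.11 to 0.11 for SLC39A14, from -0.036 to 0.045 for SLC4A4, from -0.0059 to 0.085 for SLC14A1, from -0.14 to 0.17 for SLC38A2, from -0.016 to 0.57 for SLC7A8, from -0.10 to 0.013 for SLC25A11, from -0.025 to 0.017 for SLC25A35, from -0.12 to 0.12 for SLC39A1 and from -0.59 to 0.065 for SLC2A3. In each case the cause was not tested.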
